A study of Rattus norvegicus with 12 samples.

Results

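Neonatal maternal separation (NMS), the daily removal of pups from the dam, is used in rats as a model of visceral hypersensitivity. The comparison described here sets the colon of all 8 separated rats against that of 4 rats that were never separated, whatever the later treatment, and asks which genes lay on the same side of the unseparated rats in both separated groups. It uses all 12 arrays of the series. All animals were male Wistar rats of 200 to 250 g, received a daily gavage of 100 µL from day 3 to day 60, underwent colorectal distension (CRD), the filling of a balloon in the colon, and were killed on postnatal day 60. Group C (rats C1 to C4) had stayed with the dam under normal handling and received saline as placebo. Group M (M5 to M8) was separated for 180 min per day from postnatal day 2 to day 14 and received the same placebo. Group D (D9 to D12) was separated in the same way and received VSL#3, a mixture of probiotic bacteria, in saline instead of the placebo. No group was unseparated and given VSL#3, and no group went without CRD, so the separated rats differ among themselves by the probiotic and the whole comparison holds after distension.

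A segment of colon, the same in each rat and taken near the anus, was measured on 1-colour oligonucleotide arrays, 1 array per rat, with 30367 probes of which 30348 had a value on every array. Levels are log2 signals relative to their own array's 75th percentile, so that a probe at 0 is a bright one. The dimmest signals that the scanner software held to be well above background lay between -6.86 and -6.52 on this scale, and values well under these are called background here. A difference is the average of the means of Group M and Group D minus the mean of Group C, so that 1 is a doubling. The defining genes of colon were present on every array: all 16 colonocyte genes and all 10 smooth muscle genes of fixed marker lists were well above background in all 12 rats. In a piece of whole tissue, fewer cells of a type and less RNA per cell cannot be told apart. Groups C and M were hybridised on 1 slide and Group D on a second slide with a scan of its own. For Group D against Group C, and for Group D against Group M, slide and group therefore cannot be told apart. The pooled comparison takes Group D from the second slide and all controls from the first, so slide enters it in part. On slide 1 Group C lay in array row 1 and Group M in array row 2. For Group M against Group C, row and group therefore cannot be told apart.

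Several rats did not stand with their group. Of the probes tested, M6 had 746 at least 2-fold above and 496 at least 2-fold below the mean of Group C, against 1668 to 2235 above and 681 or more below in the other rats of Group M. C2 had 1086 above the mean of the other controls, against 386 in C1, 431 in C3 and 902 in C4, so that C4 was not far from C2 by this count. D12 had 2003 above and 1872 below, while D9, D10 and D11 had 406 to 460 above. Levels of lymphocyte genes moved with these rats. Those of cell cycle genes did so for M6 and D12, but C2 (-2.20) was level with C4 (-2.19). The mean level of 11 B cell markers was -2.02 in C2 and -6.64 to -5.68 in the other controls, -6.42 in M6 and -2.24 to -1.47 in the other rats of Group M, and -0.86 in D12 and -7.03 to -4.79 in the rest of Group D. By the methods, the published gene comparison was run on 11 arrays, which left out D12. Results that rest on these rats are marked as such.

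Some of the genes named below belong to known circuits, which are described here as background. Most of the named genes, such as Ccng1, Bhlha15, Terc and Celsr1, belong to none of these. Glucocorticoid hormones, released by the adrenal gland under stress, act through a nuclear receptor whose activity is buffered by the co-chaperone FKBP5, itself a glucocorticoid target gene. Mast cells of the gut mucosa store histamine, made by histidine decarboxylase, and a family of serine proteases (chymases and their relatives) encoded side by side in the genome, and they carry the high-affinity IgE receptor. Mast cells lie close to sensory nerve endings in the colon, which is why they are often studied in visceral pain. Among the genes on the lower side are some of the alcohol and aldehyde dehydrogenases with which the colonic epithelium handles alcohols and retinol.

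The probes that carried these differences are shown here, because each value below is the signal of 1 such sequence of 60 bases and not of a whole transcript. Positions refer to rn4, the build named in the file headers, for which no exon map was used here, so exon or intron is not stated.

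Fkbp5, chr20:6637600-6637659: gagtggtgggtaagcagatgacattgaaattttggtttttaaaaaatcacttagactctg
Ccng1, chr10:25778638-25778912: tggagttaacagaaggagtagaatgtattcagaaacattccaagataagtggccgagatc
Hdc, chr3:114119325-114119384: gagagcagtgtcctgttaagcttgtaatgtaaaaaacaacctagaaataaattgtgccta
Terc, chr2:117234748-117234807: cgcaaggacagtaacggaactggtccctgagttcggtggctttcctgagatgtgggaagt
Adh4, chr2:235967986-235968045: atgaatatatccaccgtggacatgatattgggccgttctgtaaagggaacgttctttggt
Mrps10, chr9:9077319-9077378: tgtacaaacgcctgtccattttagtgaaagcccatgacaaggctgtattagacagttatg

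The span of the Ccng1 probe on the genome is longer than the probe itself. The first 5 probes had all 8 separated rats on one side of all 4 rats of Group C, and the Mrps10 probe alone passed the test over all probes.

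Across all probes the 8 separated rats and Group C differed little by a test that allows for the number of probes. With the 3 groups in one limma model and Benjamini-Hochberg adjustment, 1 of 30348 probes passed an adjusted p of 0.05 (0.0033% of those tested, or 0.00563% of 17755 named genes taken by 1 probe each). An unadjusted p of 0.01 was passed by 800 probes (2.64%). At an unadjusted p of 0.05, 3606 probes (11.9%) passed, 1509 of them higher (4.97%) and 2097 lower (6.91%) in the separated rats. For 400 probes (1.32%) the separated rats did not overlap with Group C, 161 of them higher (0.531%) and 239 lower (0.788%). A difference of at least 2-fold without overlap was found for 17 probes on the higher side (0.056%) and 32 on the lower side (0.105%). The sign was the same in Group M and in Group D for 21011 probes (69.2%), but both differences share the rats of Group C, so nothing is read from that count. An unadjusted p of 0.05 was passed in Group M by 5619 probes (18.5%), in Group D by 2079 (6.85%), and between Groups D and M by 3703 (12.2%). It was passed in both separated groups with the same sign by 787 probes (2.59%), of which 322 were higher (1.06%) and 465 lower (1.53%).

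The single probe that passed was that of Mrps10, a protein of the small subunit of the mitochondrial ribosome (difference 1.13 ± 0.12 SE, adjusted p = 0.0295). Its level was -5.16, -5.02, -5.16 and -5.06 in Group C. In Group M it was -2.92, -2.98, -2.94 and -2.77. In Group D it was -4.73, -4.85, -5.18 and -5.38. The rise was thus carried by Group M, in which all 4 rats lay far above every control, while the rats of Group D lay around the controls. Group M exceeded Group C by 2.20 (adjusted p = 0.000134), Group D differed from Group C by 0.07, and Group D was below Group M by 2.13 (adjusted p = 0.000187). The call was lost in 13 of 23 alternative settings, each a rat left out or a change in the model or processing.

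Since no other probe passed, the genes named next were taken by rank of the unadjusted p among probes without overlap, with the same sign in both separated groups and well above background where the level was higher. None of them passed the pooled test, and their values are a description.

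**Figure D1:**
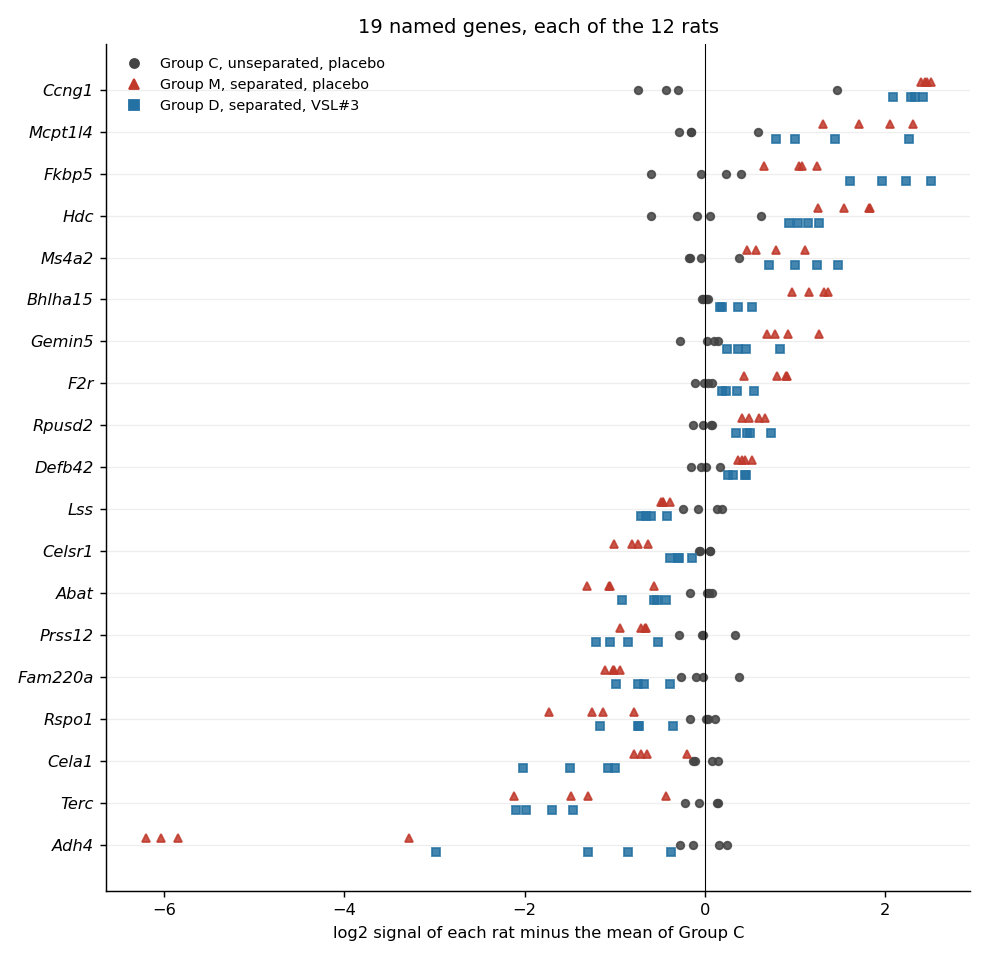
The 19 named genes given here in each of the 12 rats, as the log2 signal minus the mean of Group C (x axis; circles Group C, triangles Group M, squares Group D), with the genes higher in separated rats above and those lower below. By the rule that chose them all 8 separated rats lie on one side of the 4 controls, and the distance is smallest in genes such as Defb42 and Celsr1 and largest in Adh4, in Group M, where 3 of 4 rats are at background and the distance is not exact.

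Of the 10 genes named on the higher side, 3 belong to mast cells and 1 to the glucocorticoid response. Fkbp5 was -0.10, 0.07, -0.38 and -0.94 in Group C. It was 0.71, 0.74, 0.32 and 0.91 in Group M and 1.28, 1.63, 1.89 and 2.17 in Group D. All rats of Group M lay above all controls, and all rats of Group D above all rats of Group M. The pooled difference was 1.54 ± 0.21 (adjusted p = 0.078), made of 1.01 in Group M and 2.08 in Group D, and the latter alone passed (adjusted p = 0.0495). The further 1.07 by which Group D exceeded Group M did not pass (adjusted p = 0.151).

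Ccng1 encodes cyclin G1, a target of p53. It was -3.16, -2.73, -2.86 and -0.96 in Group C, so that C4 stood apart from the other controls. The 8 separated rats lay between -0.33 and 0.08, a difference of 2.37 ± 0.33 (adjusted p = 0.078). The difference was 2.45 in Group M and 2.28 in Group D. Without C4 it was 2.86 and passed (adjusted p = 4.7e-06).

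Bhlha15, which encodes MIST1, a transcription factor of secretory cells, was -2.72, -2.68, -2.66 and -2.71 in Group C. It was -1.54, -1.73, -1.33 and -1.37 in Group M and -2.17, -2.53, -2.51 and -2.32 in Group D. The groups did not overlap and formed 3 steps. Group M exceeded Group C by 1.20 (adjusted p = 0.0041), Group D by 0.31 (adjusted p = 0.65), and Group D fell below Group M by 0.89 (adjusted p = 0.0395).

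The mast cell genes among the 10 were Hdc, histidine decarboxylase, Ms4a2, the beta chain of the IgE receptor, and the mast cell protease gene Mcpt1l4. They are given with the other mast cell genes below. The remaining 4 had smaller differences. F2r, the thrombin receptor PAR1, was higher by 0.55, and a second probe of the gene by 0.88, also without overlap. Gemin5, a subunit of the SMN complex, was higher by 0.70, Rpusd2, a pseudouridine synthase, by 0.53, and Defb42, a beta-defensin, by 0.41. These had adjusted p of 0.143 to 0.208.

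Of the 10 genes named on the lower side 9 are given, led by Adh4, an alcohol dehydrogenase that also oxidises retinol. Its level was -2.68, -2.83, -2.39 and -2.30 in Group C. It was -8.58, -8.75, -5.83 and -8.39 in Group M, of which M7 alone was well above background. It was -3.84, -2.92, -3.40 and -5.53 in Group D. All separated rats lay below all controls, but by very different amounts in the 2 groups. Group M fell by 5.34 relative to Group C (adjusted p = 0.0284), while the difference was -1.37 in Group D (adjusted p = 0.75), and the 3.96 between Groups D and M did not pass (adjusted p = 0.101). With 3 rats of Group M at background, the size of its fall is not exact. A second probe of the gene gave -4.35 in Group M (adjusted p = 0.0327) and -1.22 in Group D.

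Terc, the RNA template of telomerase, was -2.70, -2.51, -2.86 and -2.50 in Group C. In Group M it was -3.07, -3.94, -4.76 and -4.13, and in Group D -4.73, -4.63, -4.11 and -4.34. Here Group D lay as low as Group M, with differences of -1.81 and -1.33 (pooled -1.57 ± 0.25, adjusted p = 0.141). Cela1, a chymotrypsin-like elastase, was lower by 0.99 (adjusted p = 0.187), by 1.40 in Group D and 0.58 in Group M. Rspo1, a secreted amplifier of Wnt signalling, was lower by 0.99, Abat, the enzyme that degrades GABA, by 0.80, and Prss12, the protease neurotrypsin, by 0.83. Fam220a was lower by 0.86 and Lss, the lanosterol synthase of cholesterol synthesis, by 0.52. Celsr1, a cadherin of planar cell polarity, was lower by 0.54 and passed in Group M alone (-0.80, adjusted p = 0.0284).

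**Figure D2:**
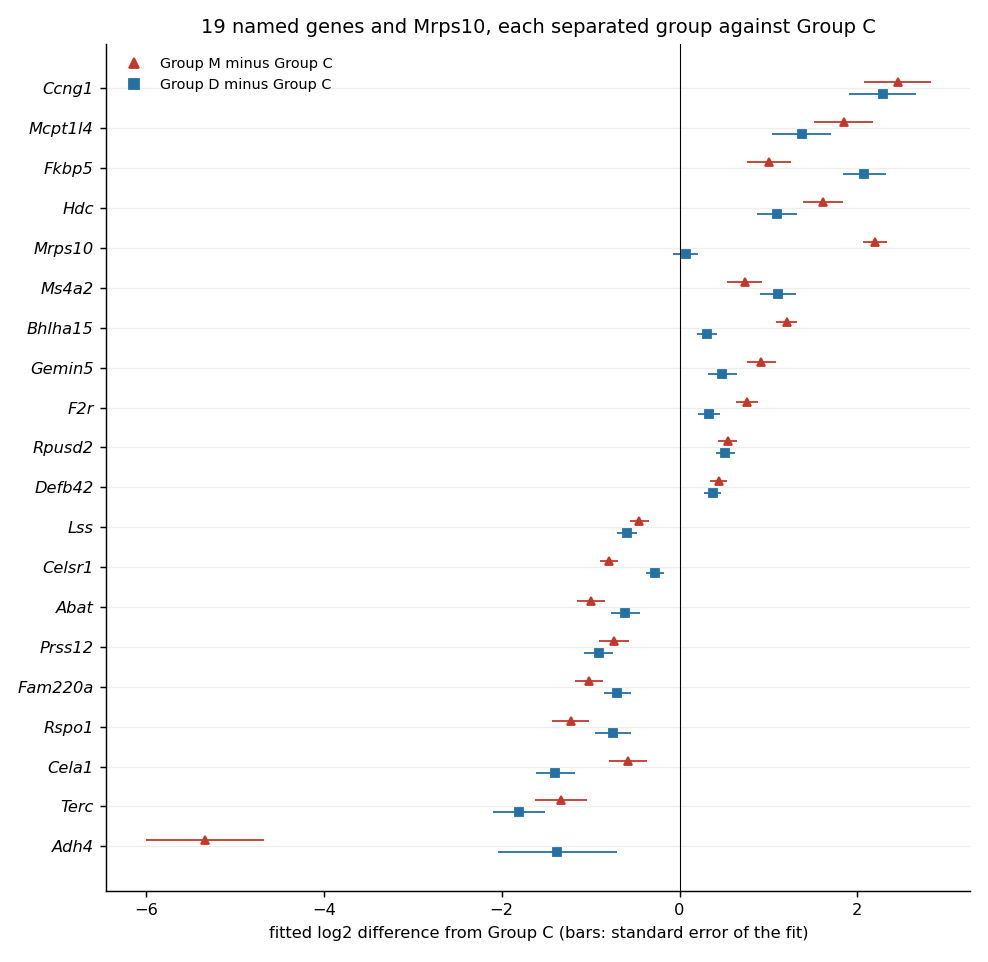
Fitted log2 difference of Group M (triangles) and of Group D (squares) from Group C for the 19 named genes given here and Mrps10, with the standard error of the fit as bars. Both differences share the controls. Fkbp5 and Terc lie farther from 0 in Group D, Adh4, Bhlha15 and Mrps10 farther in Group M, and Ccng1 is near equal in both (2.45 and 2.28).

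Each separated group was also set against Group C alone. In Group M 12 probes passed (0.0395%), which besides Mrps10, Bhlha15, Celsr1, Hdc and the 2 probes of Adh4 included Cml3 and Nat8f5, genes of the N-acetyltransferase family, both lower in Group M and not well above background in any of its rats, so that no size is given. In Group D 2 probes passed (0.00659%). They were Fkbp5 and Ascl3, a transcription factor gene. Ascl3 was -3.63 to -2.75 in Group C, -3.16 to -2.38 in Group M and -6.20 to -5.30 in Group D, so that it stood apart in Group D alone. Group D was lower than Group C by 2.76 (adjusted p = 0.0071) and than Group M by 3.11. Between the separated groups themselves 6 probes passed (0.0198%), and Mrps10, Bhlha15 and Ascl3 are the named genes among them. Probiotic and slide cannot be told apart in these 6.

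Mast cell genes were higher in separated rats as a list and as a stretch of the genome. The marker list held 10 names for 9 genes, since the array's Mcpt2 probe carries the RefSeq name Mcpt1. At an unadjusted p of 0.05, 8 of the 9 were higher, against 5.41% of 17755 named genes measured by 1 probe each. None was lower, and none passed the adjusted threshold. Hdc and Ms4a2 did not overlap with Group C, against 0.614% of all genes. The median difference of the list was 0.94, and 1.12 and 0.75 in Groups M and D, beside -0.02 for all genes. The mean level of the list in each rat was -3.64 to -2.94 in Group C and -2.75 to -2.03 in the separated rats, without overlap, and C2 was the control nearest to them.

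Hdc was -3.85, -3.14, -4.35 and -3.70 in Group C. It was -1.92, -2.50, -1.93 and -2.22 in Group M and -2.61, -2.73, -2.82 and -2.49 in Group D. The separated rat nearest to the controls was D11, and the control nearest to the separated rats was C2. The pooled difference was 1.36 ± 0.20 (adjusted p = 0.095), and Group M passed alone (1.61, adjusted p = 0.0478). Ms4a2 was -5.64, -5.23, -5.76 and -5.78 in Group C, -5.04, -4.49, -5.14 and -4.82 in Group M, and -4.60, -4.36, -4.12 and -4.89 in Group D. It was higher by 0.92, and by more in Group D (1.11) than in Group M (0.73), a gap that did not pass (adjusted p = 0.47).

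Fcer1a, the alpha chain of the same receptor, was higher by 1.23 and Cpa3, the carboxypeptidase of mast cell granules, by 0.94. The tryptases moved with Group M. Tpsab1 was -6.16, -3.37, -6.08 and -6.38 in Group C, -1.16, -3.82, -1.36 and -2.14 in Group M and -5.73, -6.15, -4.29 and -3.74 in Group D, so that M6 lay below C2. Tpsb2 differed by 0.78 in Group M and 0.07 in Group D. Kit, the receptor for stem cell factor that mast cells share with the interstitial cells of Cajal, was the exception (-0.21), and the other markers of interstitial cells, Ano1 (-0.38) and Etv1 (-0.46), had negative differences too, none past an unadjusted p of 0.05.

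The proteases lie on chromosome 15, at chr15:34083229-34601559, where the array holds 21 probes under 17 names. Of these, 18 were higher at an unadjusted p of 0.05 (85.7%, against 4.97% of all probes), none was lower and none passed the adjusted threshold. The separated rats did not overlap with Group C in 5 probes (23.8%, against 0.531% of all probes higher without overlap). Differences ran from 0.61 to 1.61 among the 15 probes that were well above background in all 12 rats. The probes are not independent of each other. Of 210 pairs of probes, 4 shared at least 50 of 60 bases, 1 of them a pair on the same transcript and the others pairs on different genes, such as the pair printed here, with the 5 bases that differ in capitals.

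RGD1562035, chr15:34339316-34339375: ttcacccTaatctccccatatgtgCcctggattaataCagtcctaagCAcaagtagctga
Mcpt1l4, chr15:34463229-34463288: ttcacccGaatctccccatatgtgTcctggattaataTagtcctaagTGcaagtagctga

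A signal on either probe can therefore come from either gene. Mcpt1l4 was -3.16, -2.28, -3.03 and -3.02 in Group C, -0.56, -1.56, -0.82 and -1.16 in Group M and -1.42, -0.61, -2.08 and -1.87 in Group D, with a difference of 1.61 ± 0.29 (adjusted p = 0.148). RGD1562035 gave 1.44 on the probe shown. The second probe of Mcpt1l4, from another stretch, gave 1.30, with D12 at the level of the highest control. That probe shared 53 bases with another probe of RGD1562035, so its signal too can come from either gene.

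Across the cluster, Cma1, the mast cell chymase, was higher by 1.24. It was -2.17, -0.34, -2.16 and -1.96 in Group C and -1.31 to 0.17 in the separated rats, so that C2 was within their range. Mcpt1 was higher by 1.20, Mcpt8l2 by 1.12 and Mcpt8l3 by 0.83, the last 2 without overlap. Mcpt8 was higher by 0.64, Mcpt10 by 0.66 and Mcpt9 by 0.62, and D12 lay among the controls in all of these 3. Vch, a chymase of blood vessel muscle, was not well above background in any control (-8.70 to -7.89). It was -3.03, -4.90, -4.30 and -5.38 in Group M and -6.73, -3.45, -7.49 and -8.35 in Group D, at least 2.37-fold higher in the separated rats. In Mcpt1, Mcpt8, Mcpt8l2 and Mcpt1l4 D10 was the highest rat of Group D, whereas in Cma1 it was the lowest.

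**Figure D3:**
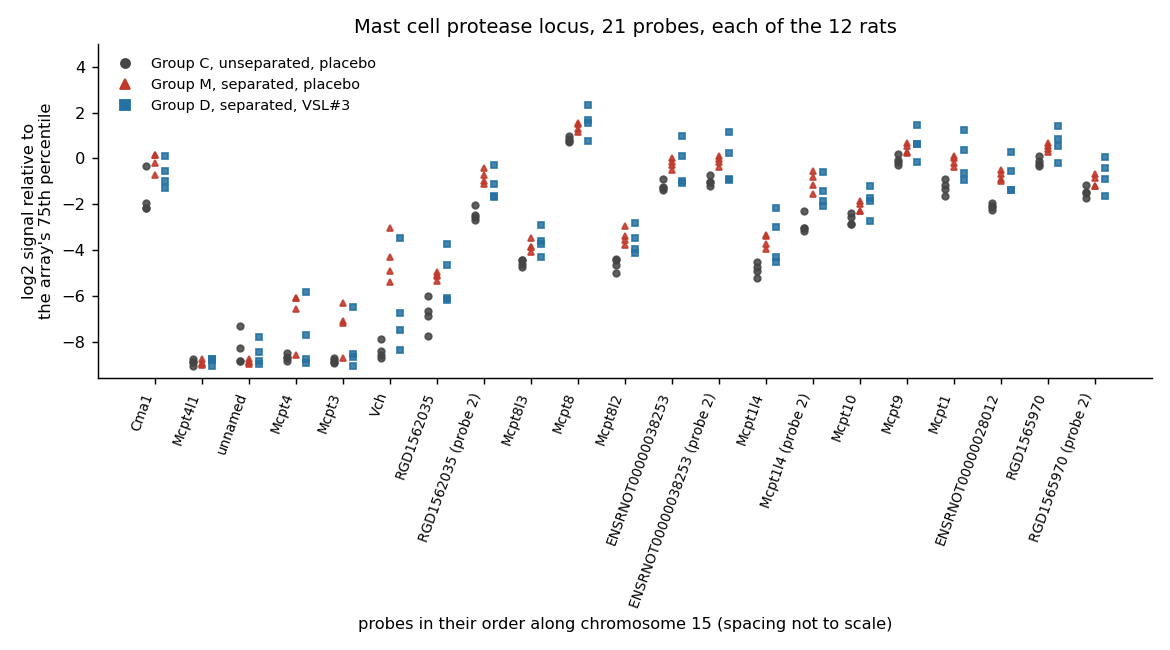
Level of each of the 21 probes of the protease cluster in each rat (y axis, log2 signal relative to the array's 75th percentile), with the probes in their order along chromosome 15 and not to scale (x axis; circles Group C, triangles Group M, squares Group D). The separated rats lie above most controls at nearly every probe that is above background, and 2 probes are at background in all rats.

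A promoter was found in the RefSeq table (build GRCr8, 250 bases before to 50 after the start) for 8 of the 9 marker genes. The motif AGATAA, bound by GATA factors, was searched on both strands. It lay in 2 of the 8, Cpa3 and Fcer1a, against 11.6% of 33469 promoters, and GGAAGT, the core bound by ETS factors, lay in 0 of the 8, against 22.6%. The window of Cpa3 is shown with the motif in capitals.

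Cpa3, GRCr8 chr2:104673188-104673487, minus strand: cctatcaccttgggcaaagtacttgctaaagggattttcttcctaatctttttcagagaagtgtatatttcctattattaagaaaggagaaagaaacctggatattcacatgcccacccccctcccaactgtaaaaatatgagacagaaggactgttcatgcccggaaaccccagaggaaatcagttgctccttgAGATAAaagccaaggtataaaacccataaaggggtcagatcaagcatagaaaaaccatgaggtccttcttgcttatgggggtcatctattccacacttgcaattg

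The list of glucocorticoid and stress genes had calls in both directions. Of its 39 genes, 3 were higher and 3 lower at an unadjusted p of 0.05, against 5.41% and 7.85% of all genes. These counts are close to the background, and the median was -0.06. Besides Fkbp5 the higher ones were Zbtb16 (1.62), a glucocorticoid-induced transcription factor with 0.68 in Group M and 2.56 in Group D, and Crhr2, a receptor for corticotropin-releasing factor and urocortins (0.70). Crhr2 was well above background in 0 controls and 7 of 8 separated rats, and was at least 1.18-fold higher. Nr3c1, the glucocorticoid receptor, was lower by 0.26 (-1.98 to -1.64 in Group C, -2.29 to -1.89 in the separated rats), and Cdkn1c by 0.48. The textbook targets Tsc22d3 (0.02), Per1 (-0.12), Sgk1 (-0.10) and Dusp1 (0.03) differed little in the pooled comparison. Tsc22d3 was -0.47 in Group M and 0.51 in Group D.

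Immediate early genes are switched on within minutes of stimulation. Of 39 genes, 13 were higher and 1 was lower at an unadjusted p of 0.05 (against 5.41% and 7.85% of all genes) and none passed the adjusted threshold, with a median of 0.56, and 0.63 and 0.50 in Groups M and D. Ccn1, a secreted matrix protein, was the one without overlap (against 0.614% of all genes higher without overlap). It was -0.61 to -0.30 in Group C, 0.28, 0.08, 1.64 and 0.59 in Group M and 1.28, 0.13, -0.21 and 1.61 in Group D. Pim1, a kinase, was higher by 1.32, Fos by 0.85 and Arc by 1.80. Fosl1 was -7.35, -1.99, -6.73 and -7.24 in Group C and ranged from -7.31 to 0.94 in the separated rats, with C2 and D12 on the high side. The mean level of the list was -1.54 to -1.10 in Group C, 0.17 in D12 and -1.58 in D11, so that the list did not separate the groups. The part that the rats standing apart play in it was not tested.

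The next list holds enzymes that handle foreign compounds and retinoids. Of 82 genes, 16 were lower and 2 higher at an unadjusted p of 0.05 (against 7.85% and 5.41% of all genes) and none passed the adjusted threshold, with a median of -0.24. Besides Adh4, Aldh1a1, the retinal dehydrogenase, and Gsta3, a glutathione transferase, did not overlap with Group C. Among all genes 0.884% were lower without overlap. Aldh1a1 was 2.96, 2.66, 2.80 and 2.78 in Group C, 0.65, 1.74, 0.52 and 1.40 in Group M and 2.03, 2.51, 2.27 and 1.09 in Group D, lower by 1.27 ± 0.28 (adjusted p = 0.27). M7 and M5 were lowest, and D12 was the lowest of Group D. Adh7, which oxidises retinol, was lower by 1.02 and by about the same in Groups M and D (-0.98 and -1.06). Adh1c, among the brightest of the list, was lower by 0.59. Ahr, the receptor that induces many of these enzymes, was higher by 0.49.

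A further list holds genes that break down branched-chain amino acids, ketones and fatty acids. Of 40 genes, all well above background in every rat, 36 had a negative difference, 11 were lower and 1 was higher at an unadjusted p of 0.05 (against 7.85% and 5.41% of all genes), none passed the adjusted threshold, and the median was -0.25. Dbt, of the branched-chain ketoacid dehydrogenase, was lower by 0.74, Ivd by 0.54, Mccc1 by 0.51 and Ppara, the nuclear receptor of fatty acid oxidation, by 1.04. Bcat1, the cytosolic transaminase that starts the pathway, went the other way (1.15). No gene of the list was free of overlap, against 0.614% of all genes higher and 0.884% lower without overlap. Among 36 salt and water transport genes, 3 were higher and 4 lower (against 5.41% and 7.85% of all genes), close to the background, with a median of -0.26. Slc4a4, a sodium bicarbonate cotransporter (-0.46), and the water channel Aqp1 (-0.26) were lower without overlap, against 0.884% of all genes. Aqp3 (0.83) and Scnn1g, a subunit of the epithelial sodium channel (1.21), were higher, and Scnn1g was 0.81 in Group M and 1.61 in Group D. Among 30 tight junction genes 5 were lower (against 7.85% of all genes), Cldn15 by the most (1.07), and 1 was higher (against 5.41%).

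**Figure D4:**
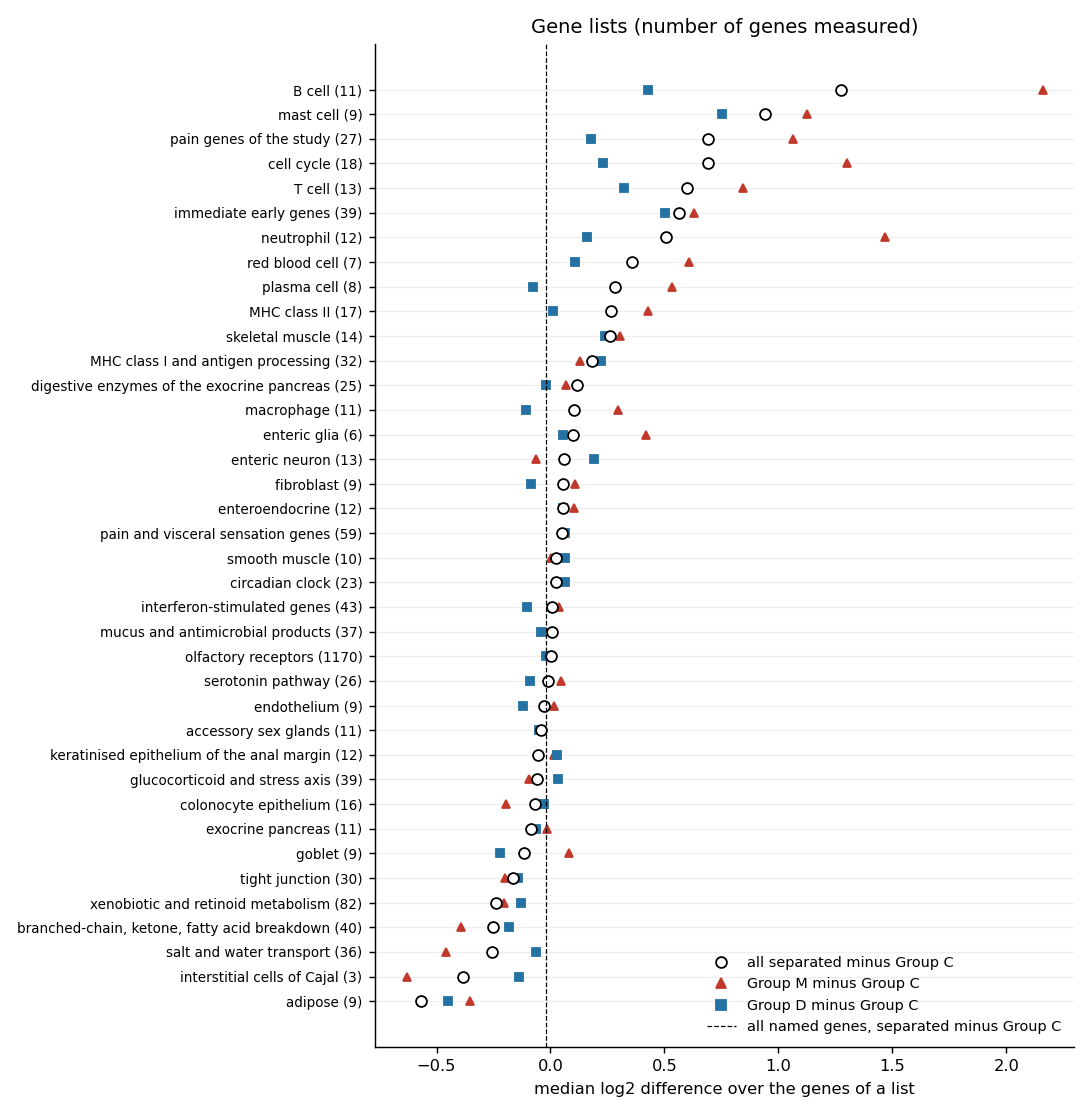
Median log2 difference from Group C over the genes of each list (x axis), for all separated rats (open circles), Group M (triangles) and Group D (squares), with the number of genes measured in brackets. The broken line is the median of all named genes. The mast cell list lies at 1.12 in Group M and 0.75 in Group D, the B cell list at 2.16 and 0.43, and the median of all genes at -0.02 in both.

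A few probes were at background in 1 set of rats and bright in another. The largest difference of all was that of a probe of RT1-Bb, the beta chain of an MHC class II molecule, and it is shown with the second probe of the gene because the 2 disagree.

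RT1-Bb, chr20:4730533-4730583: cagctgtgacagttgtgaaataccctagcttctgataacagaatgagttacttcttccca
RT1-Bb, second probe, chr20:4732187-4732246: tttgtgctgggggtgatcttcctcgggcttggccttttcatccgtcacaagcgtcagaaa

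The first probe was -8.39, -8.78, -8.89 and -7.99 in Group C, not well above background in any rat. It was 3.47, 1.66, 2.84 and 4.02 in Group M, and -6.11, 1.89, 1.93 and -8.20 in Group D. All rats of Group M and D10 and D11 were bright, D9 was dim but above background, and D12 was at background with the controls. The separated rats were at least 118-fold higher (adjusted p = 0.20). The second probe was bright in all 12 rats, 2.00 to 3.15 in Group C and 1.63 to 3.89 in the separated rats, with a difference of 0.05. The first probe maps to 51 bases of the genome, short of its length.

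Other probes of this stretch of chromosome 20 were likewise higher in Group M, D10 and D11 than in the controls. RT1-Ba, the alpha chain, was at background in Group C and in D9 and D12. In Group M it was -6.89 to -4.86, so that it was dim there. A probe of Btnl8, a butyrophilin-like gene, was -7.22 to -6.38 in Group C, -1.60 to 0.03 in Group M, -0.43 and -0.51 in D10 and D11, and -7.97 and -8.96 in D9 and D12. Its other probe differed by -0.53. Butyrophilin-like proteins regulate T cells in the gut epithelium, and several of their genes lie next to the class II genes. Btnl4 (-1.75) and both probes of Btnl5 (-1.24 and -1.50) were lower without overlap, and Btnl7 by 1.46, whereas Btnl2 (-0.53), Btnl3 (-0.83) and Btn3a2 (-0.64) did not pass an unadjusted p of 0.05. Of the 17 probes at chr20:4342888-4732246, 3 were higher and 5 lower at an unadjusted p of 0.05 (against 4.97% and 6.91% of all probes). Without overlap 0 were higher and 3 lower, against 0.531% and 0.788% of all probes.

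Among 32 MHC class I and antigen processing genes, 10 were higher and 1 lower (against 5.41% and 7.85% of all genes), with a median of 0.18. Of the list 1 gene was higher without overlap, against 0.614% of all genes. RT1-CE16 was 1.34 to 1.60 in Group C, 2.43 to 3.15 in Group M and 1.63, 3.14, 3.00 and 1.75 in Group D, without overlap, so that D9 and D12 lay just above the controls and D10 and D11 with Group M. RT1-A2 (0.67) and RT1-CE2 (0.72) were likewise highest in D10 and D11 within Group D. Tap2, a subunit of the peptide transporter, was higher by 0.76. Class I genes are close copies of each other, and their probes may share signal. The 17 class II genes had 1 higher and 3 lower, to be set against the same shares of all genes. Of 43 interferon-stimulated genes 0 were higher and 1 was lower, with a median of 0.01.

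Trypsinogens, the precursors of the digestive protease trypsin, showed another set of bright rats. The stretch chr4:69015353-69055929 was set by the names of trypsinogen genes and holds 4 probes. All 4 were higher at an unadjusted p of 0.05, against 4.97% of all probes. Of the 4, 0 were without overlap (against 0.531% of all probes higher without overlap) and 1 was well above background in all 12 rats.

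Prss3, chr4:69015353-69015412: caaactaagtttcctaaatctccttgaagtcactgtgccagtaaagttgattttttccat

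Prss3 was -8.81, -8.88, -7.04 and -8.62 in Group C. It was -1.01, -3.29, -2.10 and -2.26 in Group M and -3.69, -8.93, -4.56 and -0.58 in Group D. Of the separated rats D10 alone was at background, and 1 of 4 controls was well above it. The difference was 5.03 ± 1.17 (adjusted p = 0.275). Try10 differed by 3.75 on its brighter probe with the same order of rats. Other products of the exocrine pancreas did not follow: Prss1 (-0.01) and Cpa1 (-0.09) were at background in all rats, and of 11 markers of exocrine pancreas 0 were higher and 0 lower, with a median of -0.09.

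**Figure D5:**
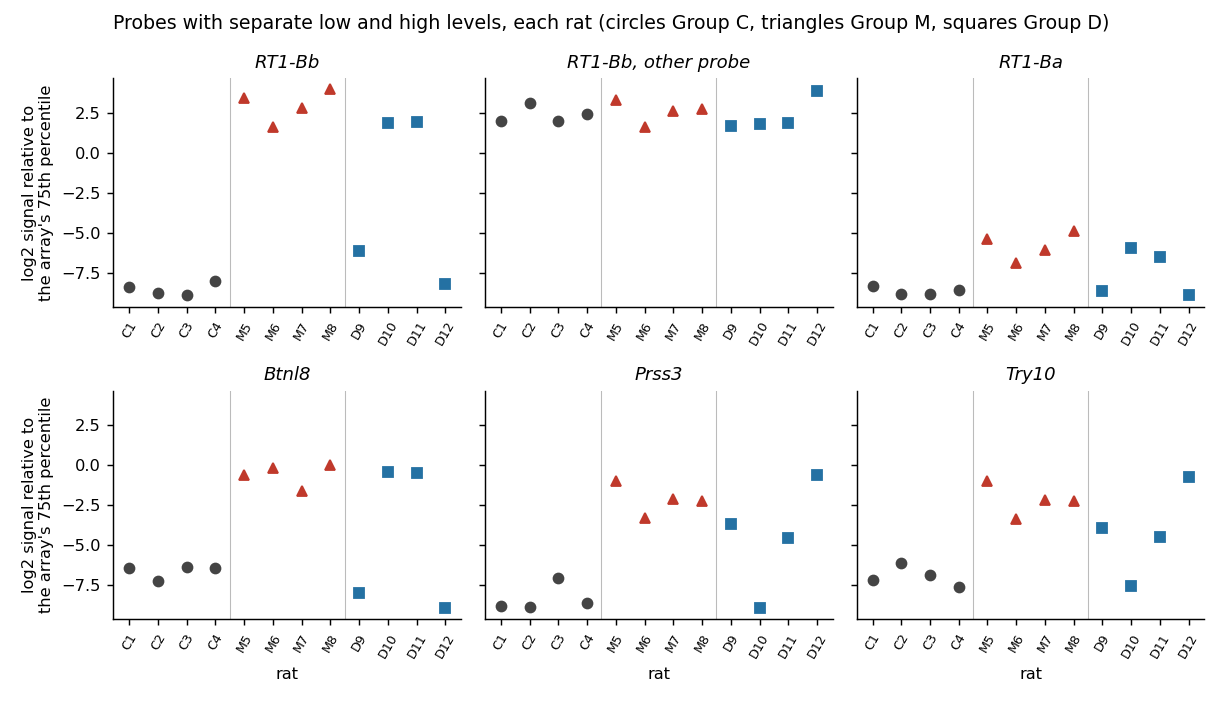
Probes with separate low and high levels in each rat (log2 signal relative to the array's 75th percentile; circles Group C, triangles Group M, squares Group D). The first RT1-Bb probe and the Btnl8 probe are bright in Group M, D10 and D11 and at background in D12. RT1-Ba is dim in Group M and at background in D12. Prss3 and Try10 stand higher in all separated rats except D10, and the second RT1-Bb probe is bright in all 12 rats.

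The genes that the study followed for pain and inflammation were examined one by one, with 26 of them given here, and as they were chosen on these samples their direction is not independent evidence. Of 27 genes, 7 were higher and 3 lower at an unadjusted p of 0.05, against 5.41% and 7.85% of all genes. None passed the adjusted threshold, with a median of 0.69 over all separated rats. The median was 1.06 in Group M and 0.18 in Group D.

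P2rx4 and Tph1 were the 2 without overlap, against 0.614% of all genes higher and 0.884% lower without overlap. P2rx4, an ATP-gated cation channel, was -0.84, -1.27, -0.58 and -1.45 in Group C, -2.10, -1.74, -2.91 and -2.44 in Group M and -1.99, -1.52, -1.82 and -2.52 in Group D. It was lower by 1.26 and 0.93, and D10 was only just below the lowest control (pooled -1.09 ± 0.25, adjusted p = 0.27). Tph1, the enzyme that makes serotonin in enterochromaffin cells, was -2.71, -2.64, -2.96 and -2.44 in Group C, -1.94, -1.93, -0.99 and -1.65 in Group M and -2.34, -2.32, -2.33 and -2.17 in Group D. It was higher by 1.06 and 0.40 (pooled 0.73 ± 0.17, adjusted p = 0.275), and all rats of Group D lay between the 2 other groups. Slc6a4, the transporter that removes serotonin, had a difference of -0.84 and did not pass an unadjusted p of 0.05. Of the 26 serotonin genes 2 were higher and 0 lower, against 5.41% and 7.85% of all genes. The higher count is close to the background.

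Among the ion channels, Trpv2 (0.83) and Trpv4 (0.58) were higher and Trpa1, the irritant receptor, was lower by 0.79. All 3 differed more in Group M (1.17, 1.02 and -1.26) than in Group D (0.49, 0.15 and -0.31). The potassium channel Kcnk2 had -0.45 and was not past an unadjusted p of 0.05. Among the mediators, Ptgs2, the inducible cyclooxygenase, was higher by 1.47 and by like amounts in Groups M and D (1.61 and 1.34). The prostaglandin receptor Ptger2 was higher by 0.70, the nitric oxide synthase Nos3 by 1.03 and the cytokine Il10 by 1.59. Faah, which degrades the endocannabinoid anandamide, was lower by 0.58, with -0.96 in Group M and -0.20 in Group D.

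The other genes of the set did not pass an unadjusted p of 0.05. The chemokines and cytokines varied most. Ccl2 was -1.08 to 1.40 in Group C, 1.11 to 4.71 in Group M and -0.87, -0.90, -1.57 and 2.73 in Group D (difference 1.65). Cxcl1 differed by 1.87, Il6 by 1.51 and Ccl3 by 0.69, each with D12 as the highest rat of Group D. Bdkrb1, the inducible bradykinin receptor, differed by 1.92 and Tnfrsf1b, a receptor of tumour necrosis factor, by 1.13. Ccr2 had mean levels of -6.17, -5.06 and -6.44 in Groups C, M and D, so that its pooled difference of 0.42 joins opposite signs. Mrgprg, a receptor of sensory neurons, differed by 1.13 and was well above background in 0 controls and 4 separated rats. Slc1a2, a glutamate transporter, differed by 0.65 and was well above background in 1 rat alone. Cnr1, the cannabinoid receptor, differed by -0.55, Npy1r by -0.44, Iapp by -0.40 and the neurokinin receptor Tacr2 by -0.38. Ucn (-0.08) and Oprl1 (0.02) were at or near background. In the wider list of 59 channels and receptors of visceral sensation, 7 were higher and 6 lower (against 5.41% and 7.85% of all genes), with a median of 0.05. Pdyn, the precursor of the opioid dynorphin (0.54), Calcb, a calcitonin gene-related peptide (0.69), and Scn9a, a sodium channel of sensory neurons (0.44), were among the higher ones, and Napepld, which makes anandamide (-0.85), among the lower.

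Lists of other cell types give the setting of these values. The counts below stand beside 5.41% higher and 7.85% lower of all genes at an unadjusted p of 0.05. The 11 B cell markers had a median of 1.27, made of 2.16 in Group M and 0.43 in Group D, yet 0 of 11 passed an unadjusted p of 0.05. C2 and D12 were high for them and M6 was low, and with 1 rat left out the median ran from 0.61 (without D12) to 2.36 (without C2), and was 0.81 without C1 and 1.92 without M6. The 13 T cell markers (median 0.60, with a range from 0.18 without D12 to 1.21 without C2, and 0.26 without C3 and 0.37 without C1) and the 18 cell cycle genes (0.69) likewise had none past it. The cell cycle list was -3.04 to -2.19 in Group C, -2.89 in M6, -1.30 to -0.49 in the other rats of Group M and -0.99 in D12. Of 12 neutrophil markers 1 was higher and of 11 macrophage markers 1, and 0 of 8 plasma cell markers. Skeletal muscle had 3 of 14 higher, among them Tnnc2 (1.45), a troponin, and a median of 0.26. Of 12 enteroendocrine markers 2 were higher, Tph1 and Cck (0.54). Colonocyte, goblet, smooth muscle, fibroblast and enteric neuron markers had medians from -0.12 to 0.06. The mean mast cell level ran with the B cell level in part: in Group M, M6 was lowest for both (mast cell level -2.49) and M5 highest for both (-2.03), and C2 was the highest control for both. D12, the highest of all rats for B cells, had a mast cell level of -2.71. Their part in the mast cell result was not tested. Of 1170 olfactory receptor genes, 830 of them well above background in no rat, 20 were higher and 25 lower, with a median of 0.00.

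The remaining probes without overlap and with at least a 2-fold difference were chosen by that rule after their values were seen. On the higher side they included Cd209l1 (1.22), a lectin of dendritic cells, and Elf5 (1.34), an epithelial transcription factor that was well above background in 1 of 4 controls and all separated rats. On the lower side they included Dio1 (-1.36), the deiodinase that activates thyroid hormone, Aldh1b1 (-1.32), a mitochondrial aldehyde dehydrogenase, Tlr3 (-1.04), the receptor for double-stranded RNA, and Kcnk10 (-1.05), a potassium channel. Dio1 was -1.94 to -1.46 in Group C, -3.90, -2.75, -3.73 and -3.06 in Group M and -2.45, -2.44, -2.42 and -3.60 in Group D. In Dio1, as in Adh4, Aldh1a1 and Tlr3, D12 was the rat of Group D farthest from the controls, and D12 was also the one whose B cell and immediate early gene levels were like those of Group M.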

How the data were processed

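Colon RNA of 12 rats was hybridised to 1-colour arrays (Cy3), 1 array per rat. Per the file headers, the intensity of each spot was read with Feature Extraction 10.5.1.1, which subtracted the background and detrended each array, with no normalization between arrays. The same software set the deposited marks for control spots, outliers, saturation and signal well above background. The authors also deposited a table of log2 values, normalized between arrays in a way not given in the sources used here. Each of its columns correlated best with its own array (r of at least 0.9997), and its column medians were 7.283 to 7.284, and it served as an alternative.

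From the files, log2 processed signals were shifted by the 75th percentile of each array, without control and outlier spots (277 to 521 spots an array), and replicate spots were averaged. Probes lacking a value on any array (19) were left out. No spot was saturated, and 75.5 to 77.5% of spots were well above background. Only 12 arrays limit the precision. Probes were named through RefSeq accessions (18383), symbols (2179) or synonyms (603), and 9202 kept the name of the file. Groups came from the sample labels, and replicates are separate rats. A model of the 3 groups was fitted with limma 3.58.1 (R 4.3.3), with the contrast of the mean of Groups M and D against Group C and Benjamini-Hochberg adjustment over 30348 probes, and was tested on simulated data. Figures were drawn with matplotlib 3.10.9.

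Named genes were, per direction, up to 15 genes passing an adjusted p of 0.05 without overlap, with the same sign in both separated groups and well above background on every array of the higher group. As fewer passed, the list was filled to 10 by the smallest unadjusted p among probes meeting the other criteria. Clone and transcript names were counted, not named. Genes of the lists that passed and all pain genes of the study were added. Lists used the probe of highest mean signal for each gene. The members and lists were chosen with earlier results of these data known. A fold for a probe at background in 1 group is a lower bound against the lowest signal well above background. Alternatives were each rat left out, replicate number or slide as a block, 1 separated group, array weights, normexp (offset 50), quantile or median normalization, the authors' table, outlier spots kept, a filter on dim probes, an unadjusted p of 0.01, and the methods' criterion (analysis of variance and Tukey test with at least a 2-fold change). No set test was run. Of the named and pain genes, 1 each is not reported here.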

Additional observations from a re-analysis of the deposited data

Results flagged for a closer look

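Among the genes named by the rule, Groups D and M differed from each other in Mrps10 and Bhlha15, besides Ascl3 described above. Mrps10 was lower in Group D by -2.13 on the log2 scale (limma adjusted p = 0.000187) and Bhlha15 by -0.89 (limma adjusted p = 0.0395). Group D was on a slide of its own, so treatment and slide cannot be told apart in these differences. In Ccr2 every rat of Group M lay above the mean of Group C and every rat of Group D below it, with Group D minus Group M at -1.38. That opposition was not tested as such, and the limma contrast of the 2 groups gave an adjusted p of 0.101.

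Of 138 groups of 4 rats checked over 46 probes, 9 held a rat far from the other 3, and chance alone gives about 1 in 20 groups. In Group C it was C2 in Mcpt1l4 (-2.28, against -3.16 to -3.02 in the others) and Tnfrsf1b (-1.11, against -2.46 to -2.32). In Group M it was M7 in Lss (-1.75, against -1.84 to -1.83) and Adh4 (-5.83, against -8.75 to -8.39). In Group D it was D12 in every case: Tph1 (-2.17, against -2.34 to -2.32), Cxcl1 (-0.54, against -4.67 to -4.33), Il6 (-4.88, against -8.79 to -8.33), Ccl2 (2.73, against -1.57 to -0.87) and Slc1a2 (-6.76, against -8.74 to -8.51).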

How the results depend on the processing

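The count of probes passing the adjusted threshold (1, and 1 with at least a 2-fold change, and 1 on the same side in both groups) was 0, 0 and 0 with the replicate number as a block, with the separated rats as 1 group, and with quantile or median normalization. It was 7, 4 and 7 with normexp, 119, 54 and 117 with array weights, and 12 and 10 within slide 1, which compares Group M with Group C alone. At an unadjusted p of 0.01 it was 800, and the methods' criterion gave 32. Leaving out 1 rat gave 0 to 6 (0 to 3 with at least 2-fold, 0 to 5 on the same side): 6 without M6, 3 without C4, 2 without C3, and 0 without C1, C2, M5, M7, D10 or D11. List genes passing (0) were 1 with normexp, 1 within slide 1, 10 with array weights and 0 to 1 with 1 rat left out. Probes without overlap (400) were 421 to 1289 with 1 rat left out, where 1 rat fewer must be apart. The count was highest without C2 (1289), against 605 to 694 without another control, and the cause was not tested. The share of probes without overlap on the higher side was 40.3%, and 49.1% with normexp, 48.6% with median normalization and 47.3% in the authors' table. Between Groups D and M (6) the count was 3 with the replicate block, 5031 with array weights and 3 to 70 with 1 rat left out (70 without M6, 52 without D12).

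An exclusion of C2, M6 and D12 together, chosen after seeing the data, gave 1095 probes, 476 with at least 2-fold, 969 on the same side, 1835 without overlap, 46 list genes and 5308 between Groups D and M. C2 and M6 were picked because they lay toward the other group, so the larger counts follow in part from that choice and nothing is read from them. The cause of the other changes was not tested. Neither Mrps10 nor any of the 20 genes named by rank turned its direction under any of the 23 settings. The mast cell median (0.94) was 0.85 to 1.07 with 1 rat left out, 0.70 with normexp and 1.12 within slide 1. Replicate numbers did not pair the rats: deviations of same-numbered rats correlated at -0.559 to 0.384, over 0.1 in 3 of 12 pairs, and 3 of 12 rats correlated best with their own number. Probes near background limit folds to bounds.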

Other observations

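The lists not described above held few genes past an unadjusted p of 0.05, and none past the adjusted threshold. Among all genes 5.41% were higher and 7.85% lower at that unadjusted p. Of 37 mucus and antimicrobial genes 0 were higher and 2 lower, the membrane mucin Muc1 (-1.13) and the bactericidal protein Bpi (-0.75), with a median of 0.01. Of 23 circadian clock genes 1 was higher, the repressor Bhlhe40 (0.63, by like amounts of 0.65 in Group M and 0.62 in Group D), with a median of 0.02. Of 25 digestive enzymes of the exocrine pancreas the 2 higher ones were the trypsinogens described above and the 1 lower was Cela1, with a median of 0.12.

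Of 9 endothelial markers 2 were lower, Emcn (-0.34) and the receptor Tie1 (-0.31), with a median of -0.03. Of 6 enteric glia markers 1 was higher, the transcription factor Sox10 (0.54), with a median of 0.10. Of 9 adipose markers none passed, 8 had a negative difference and the median was -0.57, but -0.16 without C1, -0.29 without C3, -0.33 without M6 and -0.93 without C4. None of 7 red blood cell genes (median 0.36) and none of 12 genes of keratinised epithelium (median -0.05) passed. Of 11 genes of the accessory sex glands, 6 of them well above background in no rat, 1 was lower and without overlap (Sbp, -0.74), with a median of -0.04. Among all genes 0.884% were lower without overlap.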
